A study of Mus musculus with 2 samples.

Results

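Mir9 and Mir124a are microRNA genes of the brain that are each present in 3 copies on different chromosomes. The 6 loci examined were chosen by name from the 1973 microRNA loci counted in this series: Mir9-1, Mir9-2, Mir9-3, Mir124a-1, Mir124a-2 and Mir124a-3. Mir9-1 was read from the row of Gm25641, a microRNA gene annotated on the opposite DNA strand at the same place, using the count of that row's opposite strand. The other loci were read from the gene strand of their own rows. Every one of the 6 had a count in both libraries. A locus with 10 or more counts in both is called detected below, which held for 4 of the 6 and for 402 of the 1973.

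The libraries held RNA under 30 nucleotides from the hindbrain, which gives rise to cerebellum and brainstem, of B6NCrl mouse embryos at day 14.5. There was 1 group of 2 biological replicates, collected on 24 July 2014 (replicate 1) and 30 July 2014 (replicate 2), with no treatment or genotype to compare. The labels call each sample a single hindbrain and also a pool of both sexes, and both samples carry 1 donor label. The labels thus do not settle how many animals each sample holds. By the dates, the samples were collected 6 days apart. Each SD (n = 2) or difference between them therefore joins animals, collection day and technical steps, which cannot be told apart. The whole tissue was sequenced, so fewer cells of a type and less RNA per cell cannot be told apart.

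MicroRNAs are cut from hairpin precursors, and either arm of the hairpin can yield a mature strand of about the size sequenced here. The mature strand pairs with messenger RNAs mainly through its seed, bases 2 to 8. miR-9-5p is known in neural progenitors, where it limits progenitor regulators such as Nr2e1 and Hes1, and it targets the neuronal gene repressor Rest. The other arm, miR-9-3p, targets Rcor1, a partner of Rest. miR-124 is the microRNA typical of neurons and lowers many transcripts of other cell types, among them the splicing regulator Ptbp1.

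The 3 Mir9 hairpins yield the same mature strands from both arms. They are shown because reads of these strands cannot be assigned to 1 copy by sequence. The sequences are RefSeq records on GRCm38.p6, with the seed in capitals.
miR-9-5p: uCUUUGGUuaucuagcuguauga
miR-9-3p: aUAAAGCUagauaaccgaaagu
Among 1738 mature records, the seed of miR-9-5p occurred only at the 3 Mir9 loci, as did the seed of miR-9-3p. No other microRNA in that table thus shares a seed with either arm.

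The whole hairpins, with both mature arms in capitals, show where the copies differ. All 3 lie on the plus strand.
Mir9-1, chr3:88215598-88215686: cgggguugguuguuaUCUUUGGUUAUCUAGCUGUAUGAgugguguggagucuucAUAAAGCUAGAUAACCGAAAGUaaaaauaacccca
Mir9-2, chr13:83738814-83738885: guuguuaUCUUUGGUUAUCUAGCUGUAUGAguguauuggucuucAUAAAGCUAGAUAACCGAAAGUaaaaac
Mir9-3, chr7:79505264-79505353: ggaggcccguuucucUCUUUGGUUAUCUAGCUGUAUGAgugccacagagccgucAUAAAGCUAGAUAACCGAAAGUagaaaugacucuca
Mir9-1 and Mir9-2 share a run of 33 bases around miR-9-5p and another of 33 bases around miR-9-3p. Mir9-3 shares 26 bases with either of them around miR-9-5p and 25 around miR-9-3p. The base directly before miR-9-5p already separates Mir9-3 from the other copies, with 0 shared bases there, whereas Mir9-1 and Mir9-2 share 7. After miR-9-3p, Mir9-3 shares 1 base with the others, whereas Mir9-1 and Mir9-2 share 5.

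Each mature arm was then moved at either end by up to 3 bases along its hairpin, which gives 49 possible reads for an arm and 98 for a hairpin. Of the 98 reads of Mir9-3, 40 were found in no other Mir9 hairpin, 21 around miR-9-5p and 19 around miR-9-3p. Of the 98 reads of Mir9-1 and the 98 of Mir9-2, 0 were particular to the copy. With ends moved by up to 6 bases, 196 of 338 reads were particular to Mir9-3, 52 of 338 to Mir9-1 and 52 of 338 to Mir9-2. Within these windows Mir9-3 thus had the most reads that can be told from its sister copies, and Mir9-1 and Mir9-2 had equal numbers. The 21 around miR-9-5p all begin before its first base. Reads from the rest of the loop or the outer flanks were not covered, and the hairpins of Mir9-1 and Mir9-2 differ in length, with 89 and 72 bases. The search covered the 3 hairpins, not the genome. RefSeq sequences were matched for the 3 Mir9 loci, and those of Mir124a-1, Mir124a-2 and Mir124a-3 were not used here.

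The counts were far from even among the copies. Levels are given as CPM, the count of a locus per 1000000 gene-strand counts on microRNA loci, of which replicate 1 had 5826676 and replicate 2 had 6667238. A small RNA read spans a whole mature strand, so counts were not divided by length. Intervals are exact 95% Clopper-Pearson intervals and take in counting error alone, since reads rather than tagged molecules were counted.

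Mir9-3 was the highest of the 6 loci. It had 3071 counts in replicate 1 and 3370 in replicate 2, which is 527 CPM (509 to 546) and 505.5 CPM (488.5 to 523). It ranked 120th and 124th among all loci. Mir9-1 had 252 and 254 counts, or 43.2 CPM (38.1 to 48.9) and 38.1 CPM (33.6 to 43.1), and ranked 252nd and 260th. Mir9-2 had 9 and 10 counts, or 1.54 CPM (0.706 to 2.93) and 1.5 CPM (0.719 to 2.76). Both libraries put the Mir9 copies in the same order, and no interval of 1 copy reached that of another.

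Mir9-3 was 12.2-fold above Mir9-1 in replicate 1 (10.7 to 13.9) and 13.3-fold in replicate 2 (11.7 to 15.1). Mir9-1 in turn was 28.0-fold above Mir9-2 in replicate 1 (14.5 to 61.9) and 25.4-fold in replicate 2 (13.6 to 53.6). With arm ends moved by up to 6 bases, 196 of 338 reads were particular to Mir9-3 and 52 of 338 to each of Mir9-1 and Mir9-2. That search was chosen after the counts were seen. The part of the distinguishing sequence in these counts was not tested.

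Mir124a-1 led the Mir124a copies with 44 and 53 counts, or 7.55 CPM (5.49 to 10.1) and 7.95 CPM (5.96 to 10.4). Mir124a-2 had 19 and 20 counts, or 3.26 CPM (1.96 to 5.09) and 3.0 CPM (1.83 to 4.63). Mir124a-3 had 5 and 8 counts, or 0.858 CPM (0.279 to 2.0) and 1.20 CPM (0.518 to 2.36). The order of the 3 copies was the same in both libraries. Mir124a-3 was close to the depth limit, where 3 counts equal 0.515 CPM in replicate 1 and 0.450 CPM in replicate 2. Mir124a-1 was 2.32-fold above Mir124a-2 in replicate 1 (1.32 to 4.20) and 2.65-fold in replicate 2 (1.56 to 4.68).

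In the order of all 6 loci, Mir9-1 stood above Mir124a-1, by 5.73-fold in replicate 1 (4.14 to 8.08) and 4.79-fold in replicate 2 (3.55 to 6.57). The lower neighbours did not differ beyond counting error. Mir124a-2 over Mir9-2 was 2.11-fold in replicate 1 (0.910 to 5.30) and 2.0-fold in replicate 2 (0.893 to 4.79). Mir9-2 over Mir124a-3 was 1.80-fold (0.542 to 6.84) and 1.25-fold (0.444 to 3.65). With counts of both strands this order turned, with a mean of 2.12 CPM for Mir124a-3 and 1.49 CPM for Mir9-2.

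**Figure D1:**
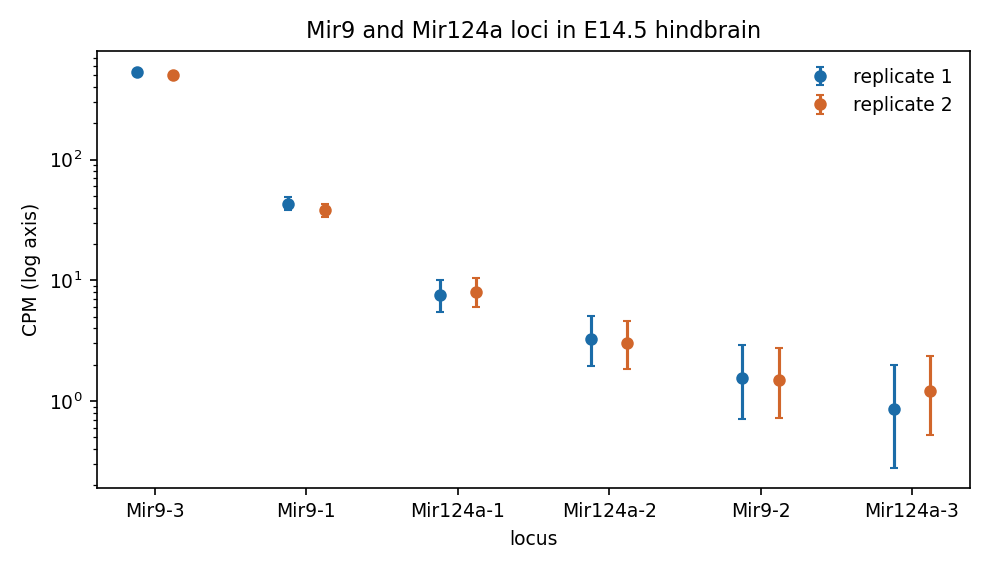
Level of each Mir9 and Mir124a locus in CPM on a log axis, with 1 point for each library and bars for the exact 95% interval of counting error. Mir9-3 stands near 500 CPM, Mir9-1 near 40 CPM, and the other 4 loci lie under 10 CPM in both libraries.

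Summed over their copies, the Mir9 loci had 3332 counts in replicate 1 and 3634 in replicate 2, or 572 and 545 CPM (558 ± 18.9, SD, n = 2). The Mir124a loci together had 68 and 81 counts, or 11.7 and 12.2 CPM (11.9 ± 0.338, SD, n = 2). The Mir9 sum was 49.0-fold above the Mir124a sum in replicate 1 (38.6 to 63.2) and 44.9-fold in replicate 2 (36.0 to 56.6). Both sums hold only reads assigned to 1 copy, and the copies were compared by sequence for Mir9 alone. The ratio thus does not compare the whole of miR-9 with the whole of miR-124. The 6 loci held 0.0584% of the locus counts in replicate 1 and 0.0557% in replicate 2.

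Mir9-3 held 92.2% of the Mir9 counts in replicate 1 (91.2 to 93.1) and 92.7% in replicate 2 (91.8 to 93.6). Mir9-1 held 7.56% and 6.99%, and Mir9-2 held 0.270% and 0.275%. Mir124a-1 held 64.7% of the Mir124a counts in replicate 1 (52.2 to 75.9) and 65.4% in replicate 2 (54.0 to 75.7). Mir124a-2 held 27.9% and 24.7%, and Mir124a-3 held 7.35% and 9.88%. The split among copies was thus close to the same in both libraries, and for each copy the intervals of the 2 libraries overlapped.

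**Figure D2:**
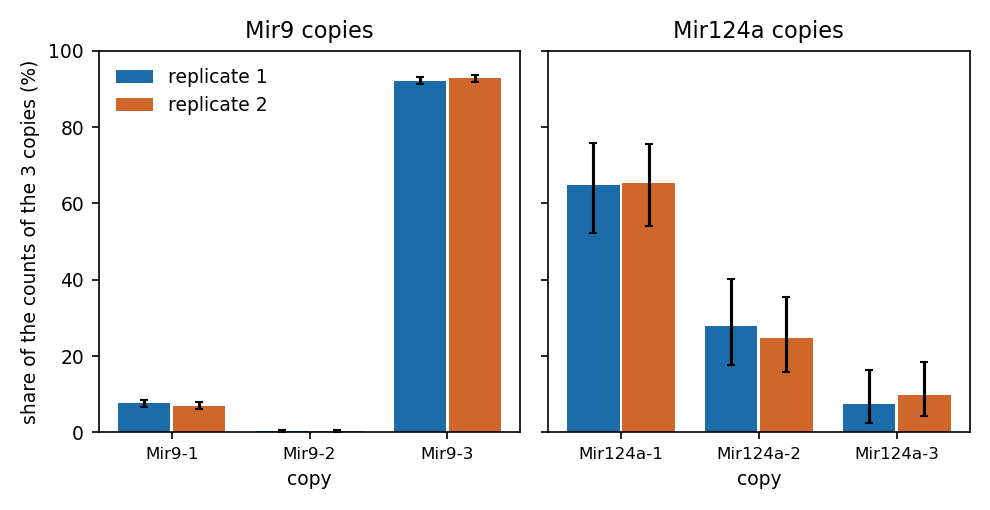
Share of the counts of the 3 copies that each copy held, in percent, for Mir9 (left) and Mir124a (right), with bars for each library and error bars for the exact 95% interval. Mir9-3 holds over 90% of the Mir9 counts, while Mir124a-1 holds about 65% of the Mir124a counts.

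These values count reads that the deposited tables assign to 1 locus. Reads that mapped to several places stand in a separate row and are not divided among loci. That row held 4000369 reads in replicate 1, which is 33.9% of the 11804816 reads of the table (33.86 to 33.92). In replicate 2 it held 4917403 reads, or 34.3% of 14348369 (34.25 to 34.30). For every read assigned to a Mir9 copy there were 1201 multimapping reads in replicate 1 and 1353 in replicate 2. For every read on a Mir124a copy there were 58830 and 60710. The row does not say from which loci its reads came, so how many belong to miR-9 or miR-124 was not tested, and the levels above are of uniquely assigned reads only.

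The 2 strands of each locus were counted apart. Over all loci 1.99% of counts in replicate 1 and 2.21% in replicate 2 lay on the opposite strand, and 451 of 508 loci with at least 10 counts on both strands together had 0 there. The row of Gm25641 had 0 uniquely assigned counts on its own strand in each library. All of its 252 and 254 counts were on the strand of Mir9-1. It was 1 of 8 loci with all counts on the opposite strand. RefSeq places the microRNA miR-9b at Gm25641.
miR-9b-5p: uUCGGUUAucuagcuuuauga
miR-9b-3p: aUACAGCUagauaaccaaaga
The seeds of miR-9b, in capitals, differ from those of miR-9, and no read of Gm25641 was assigned to its strand. The seed of miR-9b-5p also occurs at Gm51285, and that of miR-9b-3p at Gm51285 and Gm51268. Reads that map to several places are not counted, so the 0 counts do not show that miR-9b was absent.

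Mir9-3 had 1 and 6 counts on its opposite strand, where RefSeq lists a further miR-9b gene, Gm51285, or 0.0326% (0.000824 to 0.181) and 0.178% (0.0653 to 0.386) of its counts. Mir9-2, Mir124a-1 and Mir124a-2 had 0 opposite counts in both libraries. Mir124a-3 stood apart, with 8 opposite and 5 gene-strand counts in replicate 1 and with 6 opposite and 8 gene-strand counts in replicate 2. Its opposite share was 61.5% (31.6 to 86.1) and 42.9% (17.7 to 71.1), in both libraries above the share over all loci. Of the 508 loci, 14 had an opposite share of at least 40% over both libraries. The values of Mir124a-3 rest on 27 reads in all, and the origin of the opposite reads was not tested.

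All 6 loci lie in or overlap long noncoding RNA genes on their own strand, per GENCODE M21. Mir9-1 lies in an intron of Gm3764 and Mir9-3 in an intron of Mir9-3hg. Mir9-2 lies within an annotated exon of C130071C03Rik. Mir124a-1, at chr14:64590657-64590741, lies within an exon of Mir124a-1hg. Mir124a-2, at chr3:17795662-17795770, overlaps an exon of Mir124-2hg by 27 bases. Mir124a-3, at chr2:180894040-180894107, overlaps Gm27032 by 3 bases at the start of that gene. The 3 Mir124a loci are on the plus strand. The intronic loci, Mir9-3 and Mir9-1, were the highest of the 6, and the 4 loci that overlap an exon had lower counts.

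A pair of the host genes carries a further microRNA, which allows loci within 1 host gene to be compared. Mir3093 lies 340 bases before Mir9-1 in Gm3764, and Mir3078 lies 443 bases after Mir124a-1 in Mir124a-1hg. Mir3078 had 114 and 121 counts, or 19.6 and 18.1 CPM, and was 2.59-fold above Mir124a-1 in replicate 1 (1.81 to 3.76) and 2.28-fold in replicate 2 (1.64 to 3.22). Mir3093 had 137 and 169 counts, or 23.5 and 25.3 CPM. Mir9-1 was 1.84-fold above it in replicate 1 (1.49 to 2.28) and 1.5-fold in replicate 2 (1.23 to 1.84). The reads assigned to Mir124a-1 were therefore fewer than those of its host neighbour, and the reads of Mir9-1 were more numerous than those of its own. Reads that map to several copies of Mir9 or Mir124a are not in these counts. Their part in either ratio was not tested.

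Sharing of mature arms was next set beside level over the tables. RefSeq gave mature sequences for 916 of the 1973 loci. Among loci with 2 arms, 19 had both arms found whole at another locus, the 3 Mir9 copies among them, 51 had 1 arm shared and 512 had none. Of the 19, 5 were detected and 10 were without counts, and the median was 0 CPM in each library. The loci detected were Mirlet7c-2, Mir9-3, Mirlet7a-1, Mir9-1 and Mir199a-2, with means of 677, 516, 227, 40.7 and 7.89 CPM. Mir9-3 was thus the second highest locus of that group, and Mir9-2 with 1.52 CPM came next after these 5.

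Of the 51 loci with 1 shared arm, 40 were detected, with a median of 48.2 CPM in replicate 1 and 45.2 CPM in replicate 2. Of the 512 with none, 265 were detected, with a median of 2.15 and 2.33 CPM. Many of the 19 are loci listed with no counts in hindbrain, such as Mir465c-1 and Mir7676-1. The groups therefore differ in which microRNAs they hold, and their medians are a description.

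**Figure D3:**
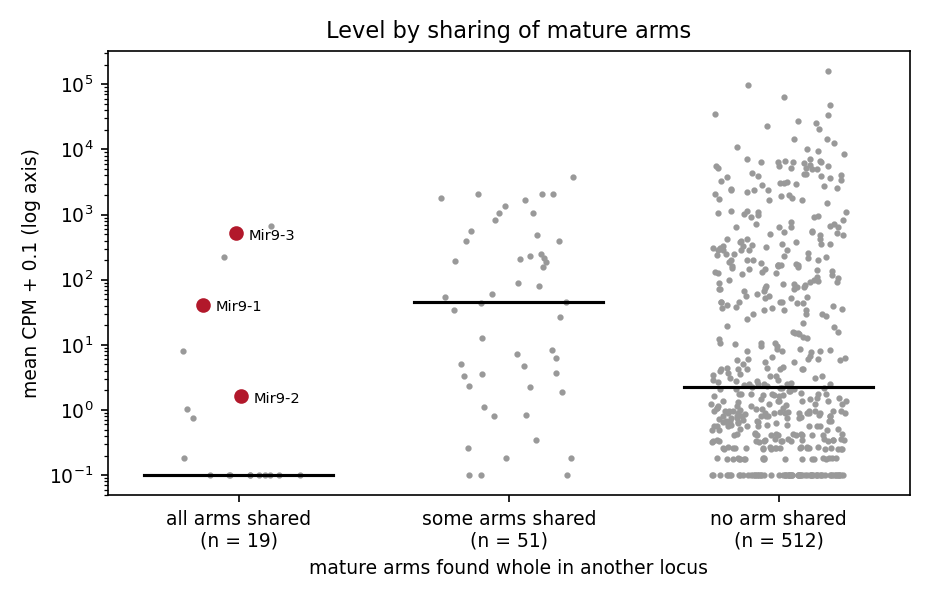
Mean CPM of loci with 2 listed arms, plus 0.1, on a log axis, grouped by how many arms are found whole at another locus, with a line at the median of each group and the Mir9 copies in red. The 3 Mir9 copies are spread over the range of the 19 loci whose arms are both shared, and points on the lowest level are loci with 0 counts.

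Families were also compared by the mature strand that their copies have in common. Apart from miR-9, 27 mature strands were shared by at least 2 loci with 10 or more counts in all, and their summed level had a median of 229 CPM. The 27 are not separate families, since some loci enter under more than 1 strand. Examples are Mir199a-2, under miR-199a-3p and miR-199a-5p, and Mirlet7c-2, under let-7c-5p and let-7a-1-3p. Each sum takes in the counts of whole loci, so it is not the level of the shared strand alone. All arms of the copies were identical in 1 of the 27, as in Mir9. In the rest the arms were not all identical, so reads of a differing arm enter the sum. The Mir9 sum exceeded 16 of the 27 sums and was below 11. The highest sums were those of the miR-125b-5p loci, Mir125b-1 and Mir125b-2, with 4104 and 4243 CPM, and of the miR-181a-5p loci with 3967 and 4141 CPM. In both of these families the copies share 1 arm and differ in the other. The leading copy held over 90% of the counts in both libraries in 10 of the 27, as Mir9-3 did in Mir9, and the median share was 77.1%. In miR-125b-5p it was near even, with 50.5% and 49.5% on Mir125b-1.

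Shared strands at 3 or more loci were found in a further 2 cases. miR-199a-3p, from Mir199b, Mir199a-2 and Mir199a-1, had 118 and 101 CPM in sum, of which Mir199b held 92.1% and 92.3%. miR-344e-5p had 2.92 and 4.05 CPM in sum, and Mir344e held 100% of it. That sum rests on 17 and 27 reads. Mir9-3 and Mir199b thus held similar shares of their families, whereas Mir124a-1 held 64.7% and 65.4% of the Mir124a counts. The arms of the miR-199a-3p loci are not all identical, unlike those of the Mir9 loci.

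By uniquely assigned reads, Mir9-3 lay below the middle of the range of brain microRNAs and the Mir124a copies near its lower end. A fixed list of 27 brain loci was used, and all 27 were detected, with a median of 1033 CPM. The list includes Mir204, which also serves below as the marker of choroid plexus. In both libraries 17 of the 27 were above Mir9-3 and 10 were below it, while 26 were above Mir124a-1. The exception was Mir184, with 2.57 and 9.75 CPM. Mir137, which acts on neuronal maturation, had 9697 and 10650 CPM, and Mir149 had 13160 and 15370 CPM.

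The 13 listed loci with no shared arm had a median of 2400 CPM, from 6.16 CPM (Mir184) to 25120 CPM (Mir130a). The 13 with 1 shared arm had a median of 390 CPM, from 33.9 CPM (Mir218-1) to 2088 CPM (Mir125b-1). Mir138-2, a copy of the dendritic microRNA miR-138, was nearest to Mir9-3 among these, with 533 and 571 CPM. Mir129-1, the 1 locus of the list with all its listed arms shared, as in Mir9, had a mean of 87.6 CPM. Within the list the loci with 1 shared arm thus had the lower median. Over all loci with 2 arms the order was the reverse, with medians of 45.7 CPM with 1 shared arm and 2.18 CPM with none. The part of multimapping reads in either was not tested.

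By level in both libraries, the loci nearest to Mir9-3 were Mir330 (489.5 and 515.5 CPM), Mir1193 and Mir16-2. Those nearest to Mir9-1 were Mir582 (42.7 and 35.4 CPM), Mir1198 and Mir30c-2. Mir124a-1 lay next to Mir3097, Mir3081 and Mir26a-1, a copy of the widely expressed miR-26a with 7.72 and 8.55 CPM. Mir124a-2 lay next to Mir6951, Mir3572 and Mir6900, and Mir9-2 next to Mir6946, Mir7068 and Mir6907. Mir194-1 and Mir5100 had the same counts as Mir124a-3, 5 and 8, and Gm23873 followed. Likeness was the summed difference in log2(CPM + 1) over the 2 libraries, which with 1 group describes level alone.

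Markers set the tissue beside these levels. All 9 brain marker loci, which are also on the brain list, were detected and together had 29290 and 33460 CPM. Mir10a and Mir10b of the Hox clusters active in hindbrain together had 179000 and 140100 CPM. The liver microRNA Mir122 had 80 and 105 counts, or 13.7 and 15.8 CPM. It exceeded the sum of the Mir124a copies 1.18-fold (0.841 to 1.65) and 1.30-fold (0.961 to 1.75), which is within counting error. That sum holds only reads assigned to 1 copy, so the ratio does not compare the whole of miR-124 with miR-122. Of 4 muscle marker loci 1 was detected: Mir1a-1 and Mir133a-1 had 0 counts in both libraries and Mir206 had 14.9 and 16.2 CPM. Mir1a and Mir133a are present in more than 1 copy, whereas Mir206 has no shared arm. Reads that map to several places are not counted, so the 0 counts do not show that muscle RNA was absent. Endothelial Mir126a had 31780 and 36690 CPM, and the red cell loci Mir451a and Mir144 together had 261 and 374 CPM.

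The 2 libraries were compared locus by locus with an exact two-sided binomial test on TMM-scaled counts, with Benjamini-Hochberg adjustment over 499 loci, those whose counts in both libraries add up to 10 or more. The test measures counting error between these libraries, not a condition, and collection day goes with replicate. It called 162 of 499 loci (32.5%) at an adjusted p of 0.05, 92 higher (18.4%) and 70 lower (14.0%) in replicate 2. With upper quartile scaling the split was 71 higher and 104 lower. Of the 6 Mir9 and Mir124a loci 1 was called, Mir9-3.

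Mir9-3 was lower in replicate 2, with a log2 ratio of -0.10 (-0.17 to -0.02, adjusted p = 0.0261 in the exact binomial test). The call was lost with library totals in place of TMM (log2 ratio -0.06, adjusted p = 0.215, exact binomial test). With edgeR's common dispersion, a coefficient of variation of 10.8%, the adjusted p was 1 (edgeR exact test). That dispersion comes from the same 2 libraries whose difference it tests, so a difference of common size cannot pass and the result says little of Mir9-3. Over 8 alternatives its log2 ratio ran from -0.15 to -0.06 and its adjusted p from 0.000166 to 1, and 6 of the 8 kept the call. Among these 6, the larger pseudocount does not enter the test, and the filters change only the adjustment. Those settings therefore say little of how firm the call is. Mir9-1 had a log2 ratio of -0.22 (-0.48 to 0.04, adjusted p = 0.211, exact binomial test). With the common dispersion 0 of the 6 were called, and 0 had an unadjusted p under 0.05, against 7 of 499 loci (1.40%) called.

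Mir9-2 had a log2 ratio of -0.09 (-1.53 to 1.40), Mir124a-1 of 0.04 (-0.57 to 0.65), Mir124a-2 of -0.16 (-1.14 to 0.83) and Mir124a-3 of 0.40 (-1.35 to 2.41). None of these 4 passed. The intervals of the low loci allow differences of 2-fold or more, except that of Mir124a-1. Summed over copies, Mir9 had a log2 ratio of -0.10 (-0.17 to -0.04, adjusted p = 0.00927, exact binomial test), and Mir124a one of 0.02 (-0.46 to 0.51, adjusted p = 1, exact binomial test). The median log2 ratio over the 6 loci was -0.09 and over all 499 it was 0.02. On the brain list, 11 of 27 were higher and 3 lower in replicate 2, with a median of 0.06. Over all 499 loci, 18.4% were higher and 14.0% lower, but these include many with few counts. When only loci with 100 counts or more over both libraries were tested, 91 of 312 were higher and 74 lower. All brain loci except Mir184 reach that count, so the 499 are not a matched background for the list. With the common dispersion 1 of the 27 was called.

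Some markers of regions and other cell types differed between the same libraries beyond counting error. In replicate 2 the Hox cluster loci Mir10a and Mir10b were lower, with log2 ratios of -0.40 and -0.37, as was Mir204 of the choroid plexus, with -0.39. The red cell loci Mir144 and Mir451a were higher, with 1.10 and 0.39, and so was endothelial Mir126a, with 0.17. The oligodendrocyte loci went opposite ways, Mir219a-2 with -0.23 and Mir338 with 0.16. All 8 were called by the exact binomial test, as were 165 of the 312 loci tested under the filter of 100 counts. Among the 8, only Mir144 passed with the common dispersion (adjusted p = 0.00831, edgeR exact test). That dispersion comes from the same 2 libraries, so the result says little of the others. Liver Mir122 (0.16), muscle Mir206 (0.08) and myeloid Mir223 (0.07) were not called. The part of these shifts in the difference of Mir9-3 was not tested.

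**Figure D4:**
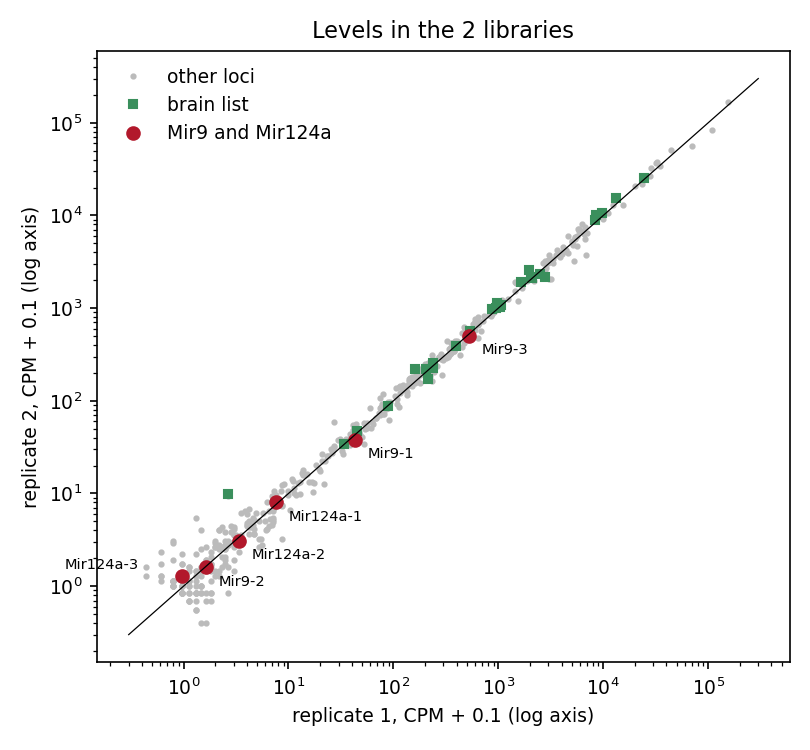
CPM plus 0.1 in replicate 1 against replicate 2 on log axes, for loci with at least 10 counts in all, with the line of equal levels. The Mir9 and Mir124a loci, in red, lie along the line, Mir9-3 near 500 CPM and the Mir124a copies under 10 CPM, below nearly all of the brain list, in green.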

How the data were processed

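The authors deposited raw read counts per microRNA locus, with 1 column for both strands and 1 for each strand, not normalized. Per the deposited file lists, the build was mm10 (GRCm38) and the annotation release M4. Aligner and counter: not given in the sources used here. The 4 rows of unassigned reads stayed out of library sizes. They held 13.8% unmapped, 33.9% multimapping, 1.99% locus-free and 0 ambiguous reads in replicate 1 and 15.9%, 34.3%, 2.26% and 0 in replicate 2.

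Symbols and coordinates came from GENCODE M21, matched for 1894 of 1973 identifiers, and sequences from RefSeq (GRCm38.p6). Loci were matched to sequences by position. The loci named were the 6 members, a brain list, markers, copy families, overlapping genes and the 3 loci nearest in level to each member. Host neighbours, single examples of sequence groups and the read-window search were chosen after the values were seen. The members and lists were chosen with earlier results of these data known.

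Alternatives covered the denominator, strand, scaling, filter, pseudocount, dispersion, summed copies, arm rule and single libraries. Log2 ratios added 0.5 to each count. On simulated counts for the library comparison (499 loci) the test found 66.7% of 1.5-fold changes, 63.3% of 2-fold and 95.8% of 4-fold ones. It called 0 of 480 when no locus changed. The simulated counts varied by counting error alone (Poisson), which is what the test assumes. These rates therefore do not bear on spread between real libraries or on the calls made between them. Software was Python 3.11.15, scipy 1.17.1, R 4.3.3, edgeR 4.0.16 and DESeq2 1.42.0.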

Additional observations from a re-analysis of the deposited data

Results flagged for a closer look

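Reads on the opposite strand of Mir124a-3 exceeded the limit that a count of 0 allows (3 counts) in both libraries. There were 8 such reads in replicate 1 and 6 in replicate 2, in a column that the levels of the locus do not use.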

How the results depend on the processing

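With all reads of the table as denominator the Mir9 sum was 268 CPM and the Mir124a sum 5.70 CPM, and with multimapping reads added to the locus counts they were 326 and 6.96 CPM. Counts of both strands gave 12.8 CPM for the Mir124a sum and 59.4% for the share of Mir124a-1, and Mir124a-3 moved from 1.03 to 2.12 CPM, above Mir9-2 (1.49 CPM). With a shared run of 18 bases in place of a whole arm, medians were 0.364 CPM with both arms shared, 81.0 CPM with 1 and 2.08 CPM with none, and 9 loci with both arms shared were detected. At 1 count in each library, 8 loci with both arms shared and 405 with none were detected. With edgeR's common dispersion 7 loci were called between libraries, in place of 162. Its spread comes from the very pair being compared. The log2 ratio of Mir124a-1 was -0.017 with upper quartile scaling and that of Mir124a-3 was -0.13 with counts of both strands, each of the other sign, and neither passed. The cause of the other shifts was not tested. With 2 libraries, leaving out 1 only returns the value of the other and says nothing of stability. Depth limits the 4 loci under 10 CPM. No paired analysis was possible because there is 1 group.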
